A study of Mus musculus with 2 samples.

Results

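Striatal medium spiny neuron genes were followed in the RNA of the cerebral cortex of *Rbfox3*-/- (KO) and wild-type (WT) mice. The set was given as a list of 36 genes by name, and all 36 were found in the deposited table of 37303 genes, each in a single row. *Drd1a* of that table is now called *Drd1*, and *Tmem90a* is now called *Syndig1l*. In all, 32 of the 36 genes had a mean over both libraries of at least 1 FPKM (fragments per kilobase of transcript, scaled to the number of mapped fragments) and were counted, as were 13042 of all genes. *Isl1*, *Six3*, *Sh3rf2* and *Slc35d3* lay under this limit and are given by their values alone.

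The series holds 1 KO library and 1 WT library, both labelled cerebral cortex and strain B6. By the study's methods KO mice were homozygous for the *Rbfox3* tm1a(EUCOMM)Hmgu allele on C57BL/6N, WT controls came from the same crosses of heterozygous parents, and the right cortical hemisphere was taken from males at postnatal day 56. The allele is carried by every cell of the animal, and how many mice went into each library is not stated in the sources used here. A single library stands for each genotype, so animal-to-animal spread is unknown, no genotype test exists, and every difference given here compares these libraries only. *Rbfox3* itself was at 6.46 FPKM in KO and 57.3 FPKM in WT, so the targeted RNA was low in the library labelled KO.

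Medium spiny neurons are the GABAergic projection neurons that make up most of the striatum. Those of the direct pathway carry the dopamine receptor D1 and release substance P and dynorphin, and those of the indirect pathway carry the dopamine receptor D2 and the adenosine receptor encoded by *Adora2a* and release enkephalin. The D1 and adenosine receptors raise cyclic AMP through the olfactory-type G protein and adenylyl cyclase 5, the D2 receptor lowers it, and cyclic AMP controls DARPP-32, an inhibitor of protein phosphatase 1. Several of these genes, such as *Foxp1*, *Arpp21* and *Meis2*, are also made by neurons of the cortex itself.

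Most of the striatal genes were lower in the KO library than in the WT library. Of the 36 genes, 31 had a lower FPKM in KO, and 5 had a higher one, *Chrm4*, *Gprin3*, *Pdyn*, *Foxp1* and *Arpp21*. Over all genes, 10423 were lower in KO and 10806 higher. The measure of difference was log2 of KO + 1 FPKM divided by WT + 1 FPKM, which understates differences of low genes, whereas single folds and percents are of FPKM as deposited. Its median over the 32 counted genes was -0.47, against 0.02 for all 13042 genes. A log2 ratio of at least 1 in size, a 2-fold difference, was reached by 7 of the 32 genes on the lower side, *Penk*, *Adora2a*, *Drd2*, *Tmem90a*, *Ppp1r1b*, *Rgs9* and *Rxrg*. That is 21.9% of them, against 0.583% of all genes counted. On the higher side 0 of the 32 genes reached it, against 0.491% of all genes. At a 1.5-fold difference 14 of the 32 genes were lower (43.8%, against 1.3% of all genes) and 0 were higher (against 1.36% of all genes). The 7 further genes at this limit were *Tac1*, *Pde10a*, *Ecel1*, *Dach1*, *Drd1a*, *Oprk1* and *Adcy5*.

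Some of these genes entered the count only through their WT value. *Drd2*, *Adora2a*, *Tmem90a*, *Rxrg* and *Ecel1* were below 1 FPKM in KO and above it in WT, and had to differ in order to be counted. Among the 27 genes at or above 1 FPKM in both libraries, 3 were at least 2-fold lower in KO, against 0.134% of the 12681 genes that met the same condition, and 9 were at least 1.5-fold lower, against 0.71%. The 3 genes were *Penk*, *Ppp1r1b* and *Rgs9*. In bulk RNA, fewer cells of a type and less RNA per cell cannot be told apart.

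**Figure D1:**
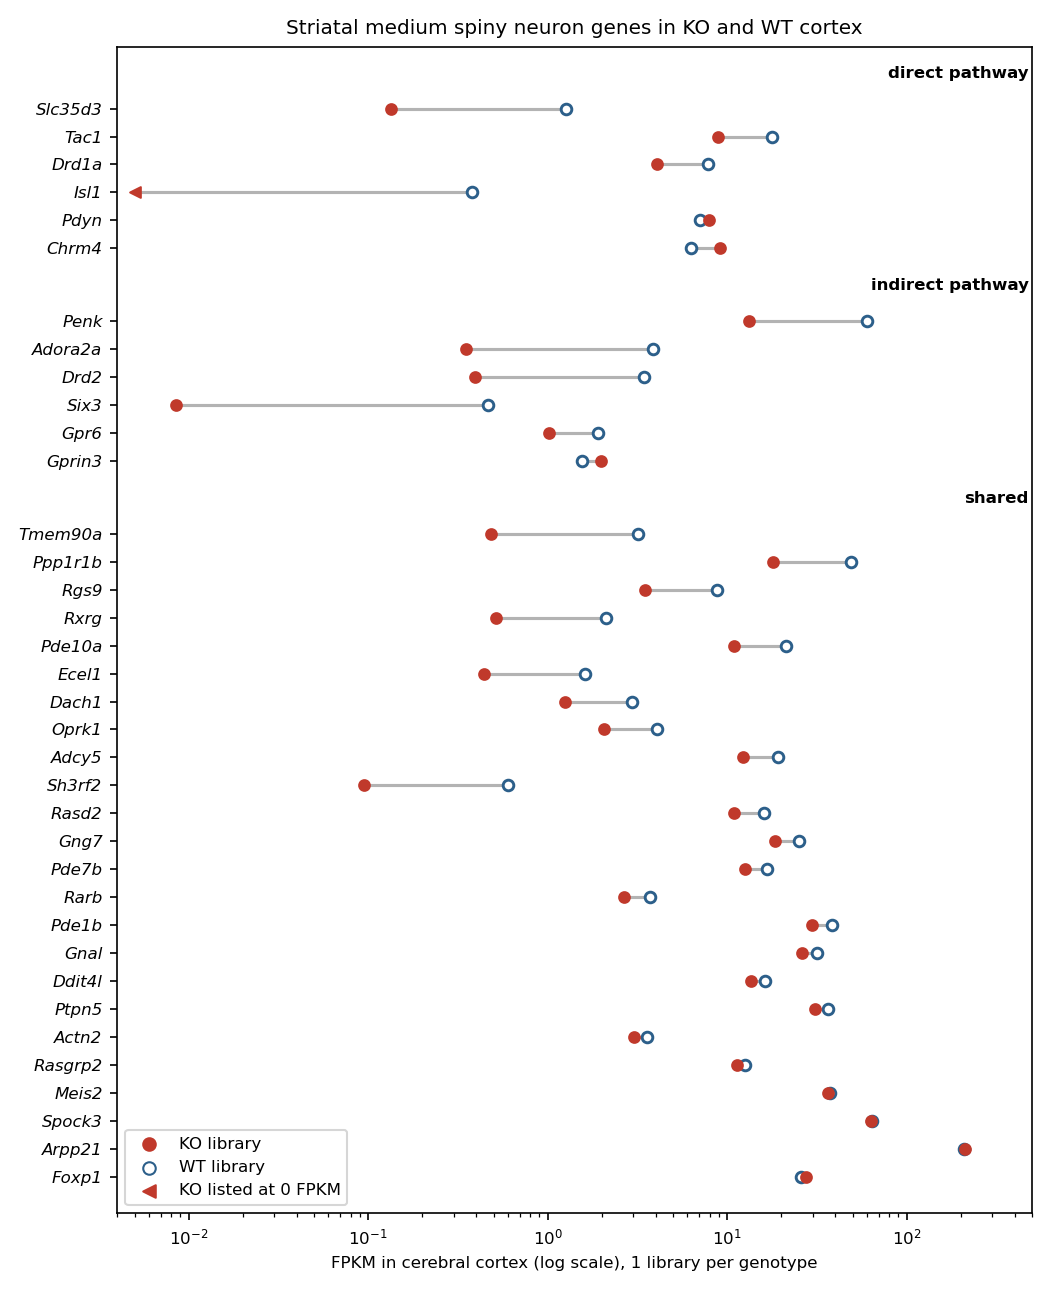
FPKM of each of the 36 striatal genes in the KO library (filled circles) and the WT library (open circles) on a log axis, by pathway and ordered by log2 ratio. The KO value lies left of the WT value for 31 genes and right of it for 5, and *Isl1*, listed at 0 in KO, is drawn as a triangle at the left edge.

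Receptor genes of the indirect pathway were lower in KO. *Adora2a* and *Drd2* had ranks 45 and 51 from the lowest log2 ratio among all 13042 counted genes. Among the 12960 of these genes that were above 0 in both libraries, the ranks were 4 and 8. *Adora2a*, which encodes the adenosine receptor of the indirect pathway (chr10:75316877-75334784 of GRCm38, plus strand), was at 0.353 FPKM in KO and 3.89 FPKM in WT, 11-fold lower. *Drd2*, the dopamine D2 receptor (chr9:49340627-49408177, plus strand), was at 0.392 FPKM in KO and 3.44 FPKM in WT, 8.78-fold lower. Both genes were under 1 FPKM in KO and above 1 FPKM in WT, and so had to differ in order to be counted and ranked. *Gpr6*, a receptor that raises cyclic AMP without an added ligand, was at 1.02 FPKM in KO and 1.91 FPKM in WT, 53.3% of the WT level.

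Receptor genes of the direct pathway lay on both sides of equality. *Drd1a* (chr13:54051183-54055705, minus strand) was at 4.09 FPKM in KO and 7.81 FPKM in WT, a 1.91-fold difference, so *Drd1a* stood at 52.5% of its WT level, close to *Gpr6* (53.3%) and above *Drd2* (11.4%). The muscarinic receptor gene *Chrm4*, whose product opposes D1 signals, was at 9.15 FPKM in KO and 6.33 FPKM in WT, 1.45-fold higher and the highest log2 ratio of the set (0.47). *Oprk1*, a shared gene for the opioid receptor that binds dynorphin, was at 2.06 FPKM in KO and 4.07 FPKM in WT.

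The promoters of 29 of the 36 genes were found in a table of RefSeq promoters (build GRCm38.p6). Those of *Adora2a*, *Gnal*, *Oprk1*, *Penk*, *Ppp1r1b*, *Sh3rf2* and *Tmem90a* were not, so several of the genes that differed most are missing. Shown are a few receptor and peptide genes of the direct and indirect pathways, which differed unequally in these libraries, and *Rarb*, a shared transcription factor gene. For each, the 250 bases before the annotated start that lies nearest to the start in the gene table are printed. The 2 starts are 258 bases apart for *Drd2* and at most 9 bases apart for the others. Capitals mark letters that were searched for on both strands, and *Drd1a* has none marked. In *Drd2* they mark the GC box GGGGCGGGG, which begins 94 and 58 bases before the start, in *Gpr6* the cyclic AMP response element TGACGTCA at 78 bases, and in *Tac1* the half-site TGACG of that element, which reads CGTCA here, at 197 and 43 bases. In *Rarb* they mark a direct repeat of the retinoic acid receptor, GTTCA and AGTTCA with 5 bases between them, at 52 bases.
Drd2 (chr9:49340153-49340402, plus strand): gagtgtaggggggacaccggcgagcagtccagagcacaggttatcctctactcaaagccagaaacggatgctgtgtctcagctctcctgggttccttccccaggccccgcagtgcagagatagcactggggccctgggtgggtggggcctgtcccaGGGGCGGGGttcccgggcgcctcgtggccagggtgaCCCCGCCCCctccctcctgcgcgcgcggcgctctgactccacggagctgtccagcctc
Drd1a (chr13:54055659-54055908, minus strand): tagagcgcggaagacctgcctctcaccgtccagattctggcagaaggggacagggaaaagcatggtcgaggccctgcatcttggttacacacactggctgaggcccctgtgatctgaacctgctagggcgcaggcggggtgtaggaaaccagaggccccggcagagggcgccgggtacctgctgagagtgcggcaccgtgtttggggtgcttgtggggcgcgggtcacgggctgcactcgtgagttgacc
Gpr6 (chr10:41072291-41072540, minus strand): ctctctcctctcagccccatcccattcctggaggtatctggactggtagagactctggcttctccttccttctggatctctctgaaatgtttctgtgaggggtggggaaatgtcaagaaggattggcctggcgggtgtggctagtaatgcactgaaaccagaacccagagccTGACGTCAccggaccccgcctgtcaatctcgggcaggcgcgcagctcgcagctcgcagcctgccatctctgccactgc
Tac1 (chr6:7554811-7555060, plus strand): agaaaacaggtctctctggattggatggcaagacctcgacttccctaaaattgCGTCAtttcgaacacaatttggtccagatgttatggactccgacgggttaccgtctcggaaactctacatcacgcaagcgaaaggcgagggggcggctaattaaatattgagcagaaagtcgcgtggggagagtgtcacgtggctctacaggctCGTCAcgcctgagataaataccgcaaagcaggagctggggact
Rarb (chr14:16575477-16575726, minus strand): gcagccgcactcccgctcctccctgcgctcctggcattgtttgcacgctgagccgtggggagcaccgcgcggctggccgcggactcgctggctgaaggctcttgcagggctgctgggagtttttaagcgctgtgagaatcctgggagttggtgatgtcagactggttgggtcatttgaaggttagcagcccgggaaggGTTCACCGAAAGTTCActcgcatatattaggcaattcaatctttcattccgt

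These letters are a description and not evidence of binding. The shares over all promoters count every listed promoter, and a gene may be listed more than once. Each of the 29 striatal genes is counted by 1 promoter, so the shares are not of like units. The GC box was found in 10.4% of all 32851 promoters of this length and in 5 of the 29 striatal ones, *Adcy5*, *Drd2*, *Gng7*, *Pde1b* and *Rasgrp2*. The full cyclic AMP response element was in 1.55% of all promoters and in 1 of the 29, *Gpr6*. Its half-site, which lies within the full element, was in 17.8% of all promoters and in 4 of the 29, *Gpr6*, *Isl1*, *Slc35d3* and *Tac1*. The retinoid repeat was in 9 of all promoters (0.0274%), of which *Rarb* is 1, and the TATA box TATAAA was in 12.4% of all promoters and in *Meis2* and *Rgs9*.

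The neuropeptide genes differed from one another. *Penk*, the precursor of the enkephalins of the indirect pathway (chr4:4133531-4138819, minus strand), was at 13.2 FPKM in KO and 60.5 FPKM in WT, 4.57-fold lower. Its log2 ratio of -2.11 was the lowest of the set. It had rank 44 from the lowest among all 13042 counted genes, and rank 3 among the 12960 above 0 in both libraries. *Tac1*, the precursor of substance P, was at 8.85 FPKM in KO and 17.9 FPKM in WT, 49.4% of the WT level. *Pdyn*, the precursor of dynorphin (chr2:129686565-129699844, minus strand), was at 7.91 FPKM in KO and 7.06 FPKM in WT, so that the peptide genes of the direct pathway lay on either side of equality. All of these peptides are also made by neurons of the cortex.

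Most genes that carry the receptor signal to cyclic AMP and phosphatases were lower in KO to very different degrees. *Ppp1r1b*, which encodes DARPP-32 (chr11:98348404-98357796, plus strand), was at 18 FPKM in KO and 49.2 FPKM in WT, 2.73-fold lower. *Rgs9*, whose long form is the brake on G protein signals in striatal neurons, was at 3.48 FPKM in KO and 8.76 FPKM in WT, 2.52-fold lower. *Pde10a*, the phosphodiesterase most typical of the striatum, was at 10.9 FPKM in KO and 21.4 FPKM in WT, or 50.8% of the WT level. *Adcy5*, the adenylyl cyclase of the pathway, was at 12.2 FPKM in KO and 19.2 FPKM in WT (63.6%), and *Rasd2*, a small GTPase also known as Rhes, at 11 FPKM in KO and 16.1 FPKM in WT (68.6%).

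The G protein subunits differed less than the receptors they serve. *Gng7*, a gamma subunit, was at 18.5 FPKM in KO and 25.3 FPKM in WT (73.4%), and *Gnal*, the olfactory-type alpha subunit, at 26.3 FPKM in KO and 31.8 FPKM in WT (82.8%). Of the remaining phosphodiesterases, *Pde7b* stood at 76.1% and *Pde1b* at 77.7% of the WT level. *Rasgrp2*, an exchange factor for the GTPase Rap, stood at 89.7%, and *Ptpn5*, the striatum-enriched tyrosine phosphatase STEP, at 85.2%. *Arpp21*, a phosphoprotein that cyclic AMP regulates and that is abundant in cortex, was at 211 FPKM in KO and 209 FPKM in WT. *Gprin3*, which interacts with the D2 receptor, was at 1.98 FPKM in KO and 1.55 FPKM in WT.

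Among the transcription factors, those also made in cortical neurons were nearly level, and the retinoid receptors were lower in KO. *Foxp1* was at 27.6 FPKM in KO and 25.8 FPKM in WT, and *Meis2* at 36.5 FPKM in KO and 37.5 FPKM in WT. *Rxrg*, the retinoid X receptor gamma, was at 0.516 FPKM in KO and 2.13 FPKM in WT, 4.13-fold lower. *Rarb*, the retinoic acid receptor beta, was at 2.65 FPKM in KO and 3.71 FPKM in WT (71.5%), and *Dach1* at 1.25 FPKM in KO and 2.97 FPKM in WT (42.2%). *Isl1*, which specifies direct-pathway neurons, was listed at 0 in KO and was at 0.378 FPKM in WT, for which no fold is given. *Six3*, which specifies indirect-pathway neurons, was at 0.0085 FPKM in KO and 0.466 FPKM in WT, levels at which a ratio rests on very little RNA.

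Of the other genes, *Tmem90a*, a relative of the synaptic protein SynDIG1, was at 0.482 FPKM in KO and 3.21 FPKM in WT, 6.66-fold lower. *Ecel1*, a membrane peptidase, was at 0.443 FPKM in KO and 1.62 FPKM in WT. *Slc35d3*, a nucleotide sugar transporter relative found in direct-pathway neurons, was at 0.135 FPKM in KO and 1.26 FPKM in WT, and *Sh3rf2* at 0.0948 FPKM in KO and 0.603 FPKM in WT. By contrast *Spock3*, a proteoglycan gene, was at 63.5 FPKM in KO and 64 FPKM in WT. *Actn2*, an actin crosslinker of dendritic spines, and *Ddit4l*, a stress-induced gene, stood at 84.2% and 83.5% of the WT level.

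By pathway, the indirect-pathway genes had the lowest median, and counts at 2-fold are read against 0.583% of all genes, at which 0 in a handful of genes is no result. The log2 ratios of the 5 counted genes of the indirect pathway ran from -2.11 to 0.22 with a median of -1.67, and 3 of them were at least 2-fold lower. The 4 counted genes of the direct pathway ran from -0.94 to 0.47 with a median of -0.32, and 0 of them were 2-fold lower. With 0.1 FPKM added in place of 1 FPKM, *Tac1* of the direct pathway was at -1.01 and so passed 2-fold. The 23 counted shared genes ran from -1.51 to 0.09 with a median of -0.37, and 4 were 2-fold lower. The ranges overlap, the groups are small, and the difference between pathways was not tested. It also depends on which genes are counted, because *Drd2* and *Adora2a* enter through WT alone. With genes at or above 1 FPKM in both libraries 1 of 3 genes of the indirect pathway, *Penk*, was 2-fold lower (against 0.134% of all genes so limited). Their median was -0.53. Without any limit on low values the indirect-pathway median was -1.11, against -0.63 for the direct pathway.

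The genes were also sorted by whether they are known to be much lower in cortex than in striatum, called low in cortex here. All counted genes of this class were below 0. The class does not follow the level in these libraries. *Gnal*, classed as low in cortex, was at 26.3 FPKM in KO and 31.8 FPKM in WT. *Oprk1*, classed as also made by cortical neurons, was at 2.06 FPKM in KO and 4.07 FPKM in WT. Of the 16 genes of this class, 13 were counted. All 13 had a log2 ratio below 0 (from -1.85 to -0.26, median -0.92), where 45.6% of all counted genes were below 0. Of the 13 genes, 6 were at least 2-fold lower (against 0.583% of all genes) and 9 at least 1.5-fold lower (against 1.3%). Of the 6 genes, 4 (*Drd2*, *Adora2a*, *Tmem90a* and *Rxrg*) entered through WT alone and so could not be above 0. Among the 9 genes of this class at or above 1 FPKM in both libraries, all 9 were below 0. Of these, 2 were 2-fold lower (against 0.134% of all genes under the same condition). In these 9 genes 5 were 1.5-fold lower (against 0.71%), and the median was -0.61. All 16 had a lower FPKM in KO, where 49.1% of all genes that differ were lower in KO. Of the 15 genes also made by cortical neurons, all counted, 11 were below 0 and 4 above it, with a median of -0.19, and *Penk* was the only one that was 2-fold lower. Summed over the group, the FPKM of genes low in cortex was 91.6 in KO and 175 in WT (52.5%), and that of genes also made in cortex 487 in KO and 565 in WT (86.1%). Most of the difference in the latter sum was *Penk*, at 13.2 FPKM in KO and 60.5 FPKM in WT. The 11 shared genes also made in cortex summed to 447 in KO and 473 in WT (94.6%). Within the genes low in cortex, the 3 counted genes of the indirect pathway had a median of -1.67, the 9 shared genes a median of -0.92, and *Drd1a*, the only counted gene of the direct pathway there, -0.79. *Slc35d3*, a direct-pathway gene too low to be counted, stood at 10.7% of its WT level, near *Adora2a* (9.09%) and *Drd2* (11.4%). The class was set by what is known of each gene, with earlier results of these data known, and 5 genes were left without a class.

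**Figure D2:**
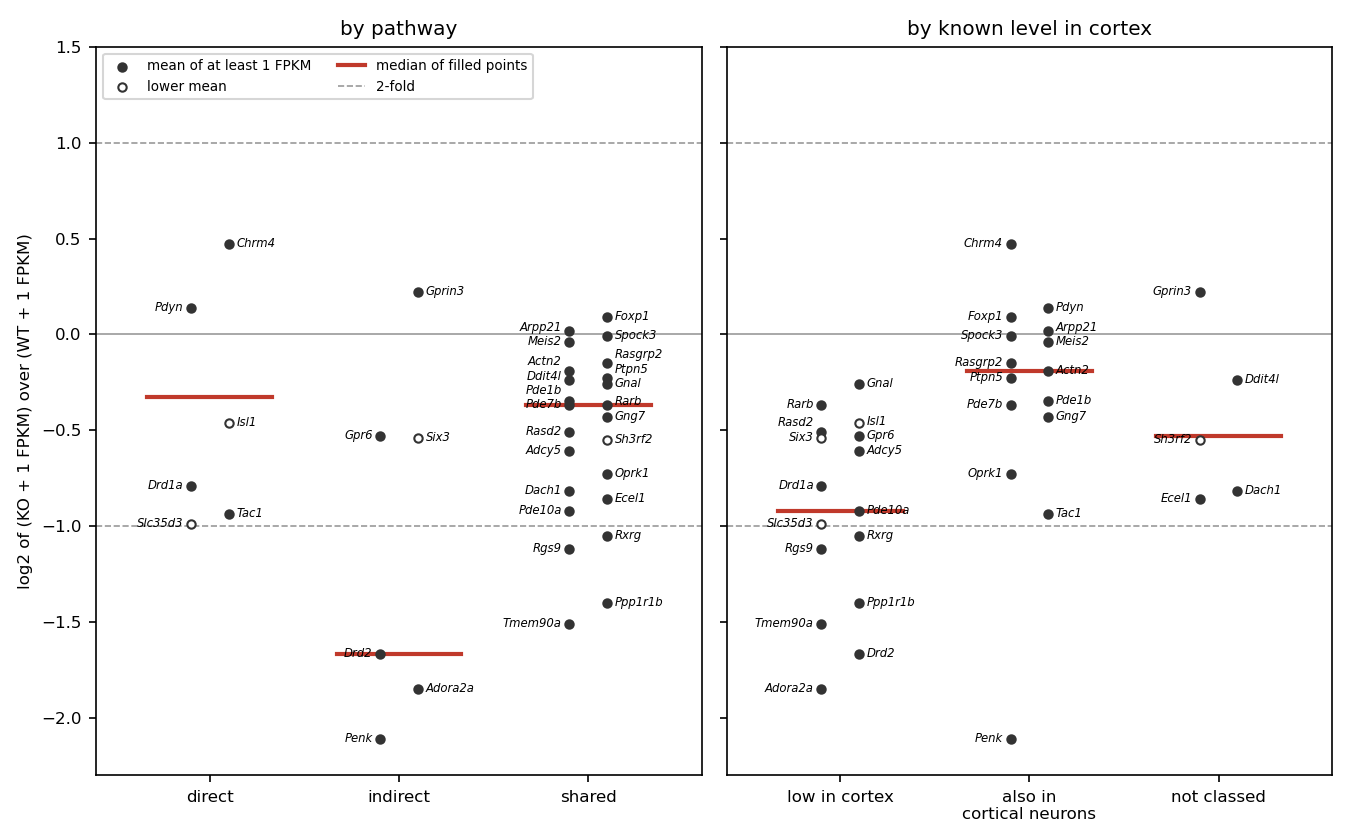
Log2 of KO + 1 over WT + 1 FPKM for each gene, by pathway (left) and by class (right). Low in cortex means known to be much lower there than in striatum. Filled points are the 32 counted genes, open points the other 4, and bars are medians of the filled points, -0.32, -1.67 and -0.37 by pathway and -0.92, -0.19 and -0.53 by class.

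The size of these differences can be set against all genes of like level. The central 95% of log2 ratios ran from -0.61 to 0.52 for 1417 genes with a mean of 1 to 2 FPKM, from -0.54 to 0.56 for 2440 genes of 2 to 5 FPKM, from -0.39 to 0.45 for 5301 genes of 5 to 20 FPKM, and from -0.36 to 0.40 for 3884 genes of 20 FPKM or more. By construction 2.5% of all genes lie below these bounds. Of the 32 striatal genes 16 lay below them, and 1, *Chrm4*, lay above. Of the 16 genes, 5 had entered through WT alone, which leaves 11 of the 27 genes at or above 1 FPKM in both libraries. *Gng7* and *Rasd2* are below the bounds of their level without reaching a 1.5-fold difference.

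Most striatal genes outside the set were also lower in KO. Of a list of 16 further genes enriched in striatum, 15 were found, 9 were counted, and 8 of the 9 had a log2 ratio below 0, with a median of -0.34, where 45.6% of all counted genes were below 0. *Lrrc10b* was at 0.682 FPKM in KO and 4.61 FPKM in WT (6.76-fold lower) and entered the count through WT alone, and *Scn4b*, a sodium channel beta subunit, at 9.3 FPKM in KO and 19.3 FPKM in WT (2.07-fold lower). At the other end *Rgs8* was at 19.8 FPKM in KO and 15.6 FPKM in WT, and *Foxp2* at 3.85 FPKM in KO and 4.14 FPKM in WT. On the log2 measure *Lrrc10b* was the only gene of this list at least 2-fold lower (against 0.583% of all counted genes). Of the 7 genes at or above 1 FPKM in both libraries, 6 were below 0 and 2 were 1.5-fold lower (against 0.71% of all genes under the same condition). At 2-fold 0 of the 7 were lower (against 0.134%), which in so few genes is no result. This list too was written with earlier results of these data known.

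General genes of the same signalling pathway were counted as well. Of 32 genes for G proteins and their regulators, adenylyl cyclases, protein kinase A, CREB, phosphodiesterases and phosphatases used across the forebrain, all 32 were counted, 0 were 1.5-fold lower and 0 were 1.5-fold higher, which is near the shares of all genes (1.3% and 1.36%). Their median was 0.05, with 12 below and 20 above 0. The lowest were *Rgs14*, at 7.24 FPKM in KO and 10.6 FPKM in WT, and *Ppp3r1*, a calcineurin subunit, at 472 FPKM in KO and 643 FPKM in WT. The highest were *Adcy8*, at 8.08 FPKM in KO and 5.12 FPKM in WT, and *Pde1a*, at 128 FPKM in KO and 97.9 FPKM in WT.

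Markers of the labelled tissue were present, and markers of other cell types and regions did not all lie level. All 18 markers of cortical excitatory neurons were present, at no less than 7.02 FPKM in KO and 6.93 FPKM in WT, with a median log2 ratio of 0.14 and a summed FPKM of 1469 in KO and 1431 in WT. Single markers differed in both directions, *Cux2* with 32 FPKM in KO against 18.4 FPKM in WT and *Lamp5* with 70.9 FPKM in KO against 116 FPKM in WT, both past 1.5-fold. All 10 genes of GABA neurons were measured, with a median of 0.04 and a summed FPKM of 514 in KO and 533 in WT. Markers of cholinergic striatal interneurons were near 0 in both libraries, *Chat* at 0.0989 FPKM in KO and 0.211 FPKM in WT and *Slc5a7* at 0.453 FPKM in KO and 0.799 FPKM in WT, and *Lhx8* was listed at 0 in KO and was at 0.179 FPKM in WT. All 4 that were found were lower in KO (against 49.1% of all genes that differ).

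Markers of 2 other cell types were lower in KO together with the striatal genes. All 8 choroid plexus genes were lower (against 49.1% of all genes that differ), with a summed FPKM of 6.32 in KO and 232 in WT. Most of that sum was *Ttr*, which encodes transthyretin, at 3.71 FPKM in KO and 221 FPKM in WT. The other counted genes differed less, *Kcnj13* by 3.86-fold and *Kl* by 3.15-fold, and both entered the count through WT alone. Of those too low to be counted, *Slc4a5* had 0.0122 FPKM in KO against 0.275 FPKM in WT. All 15 oligodendrocyte genes were lower (against 45.6% of all counted genes), with log2 ratios from -0.66 to -0.22 and a median of -0.49. Their summed FPKM was 1173 in KO and 1713 in WT, and 2 of them were at least 1.5-fold lower (against 1.3% of all genes). Among hippocampal genes the median of the 5 counted was -0.17, with *Wfs1* lowest (-0.58) and *Dsp* near 0 in both libraries, and among thalamic genes the median of 5 was 0.11. The medians were 0.05 for 9 astrocyte genes, -0.11 for 8 microglial genes and -0.03 for 7 endothelial genes, of which *Cldn5* was lowest (-1.10). In a list of genes of other ventral forebrain and midbrain cells 3 of 8 were counted, with a median of 0.17. The part of tissue composition in the striatal differences was not tested, and with 1 library per genotype it cannot be told apart from the genotype.

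**Figure D3:**
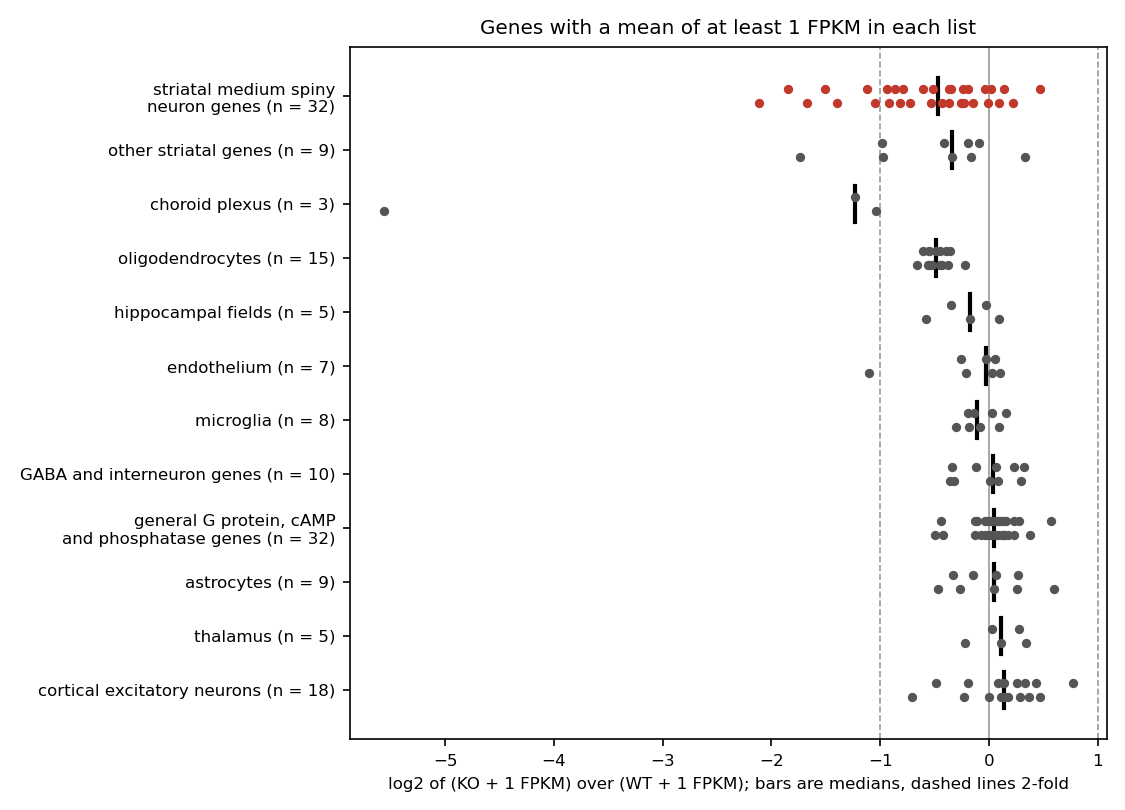
Log2 of KO + 1 over WT + 1 FPKM for the counted genes of the lists that had any, other than the list of ventral forebrain and midbrain cells, 1 point per gene, with bars for medians. The 32 striatal genes (top, red) have a median of -0.47, choroid plexus genes reach -5.56, oligodendrocyte genes lie in a narrow range around -0.49, and cortical excitatory neuron genes have a median of 0.14.

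The isoforms of most striatal genes were present in similar proportions in both libraries. The shift of a gene was taken as 50% of the summed absolute differences between its isoform shares, so that 0 means equal proportions. It was obtained for the 20 of the 36 genes that had at least 2 isoforms and 1 FPKM in both libraries, and 11 genes have 1 listed isoform only. The median shift was 0.056, against 0.0656 for 8677 genes. Of the 20 genes 15 were under 0.1, and 2 were at 0.2 or more, *Rasgrp2* (0.365) and *Rgs9* (0.27), against 11.3% of all genes. The count of 2 is near that share and is no result about the set. For *Penk* the shift was 0.00246, with both isoforms lower, 7.31 FPKM in KO against 33.3 FPKM in WT for the leading isoform. The other isoform had 5.92 FPKM in KO against 27.2 FPKM in WT.

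The most abundant *Rgs9* isoform in WT accounted for most of the difference of the gene. It was at 0.975 FPKM in KO and 4.69 FPKM in WT, or 28.1% and 53.6% of the *Rgs9* RNA, while the next isoform was at 1.62 FPKM in KO and 2.1 FPKM in WT. The leading isoform of *Rasgrp2* was at 1.15 FPKM in KO and 3.55 FPKM in WT, in a gene with 24 listed isoforms. *Gng7*, *Actn2* and *Foxp1* followed with shifts of 0.188, 0.116 and 0.101. Of the lesser *Gng7* isoforms, 1 had 0.0394 FPKM in KO against 4.19 FPKM in WT, and another had 2.36 FPKM in KO against 0.0101 FPKM in WT. The 3 main *Ppp1r1b* isoforms were all lower in KO, by 3.26-fold, 2.46-fold and 2.26-fold. Isoform FPKM divides the fragments that isoforms share, and the isoform table names no transcripts, so these isoforms are given by their rank in WT.

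**Figure D4:**
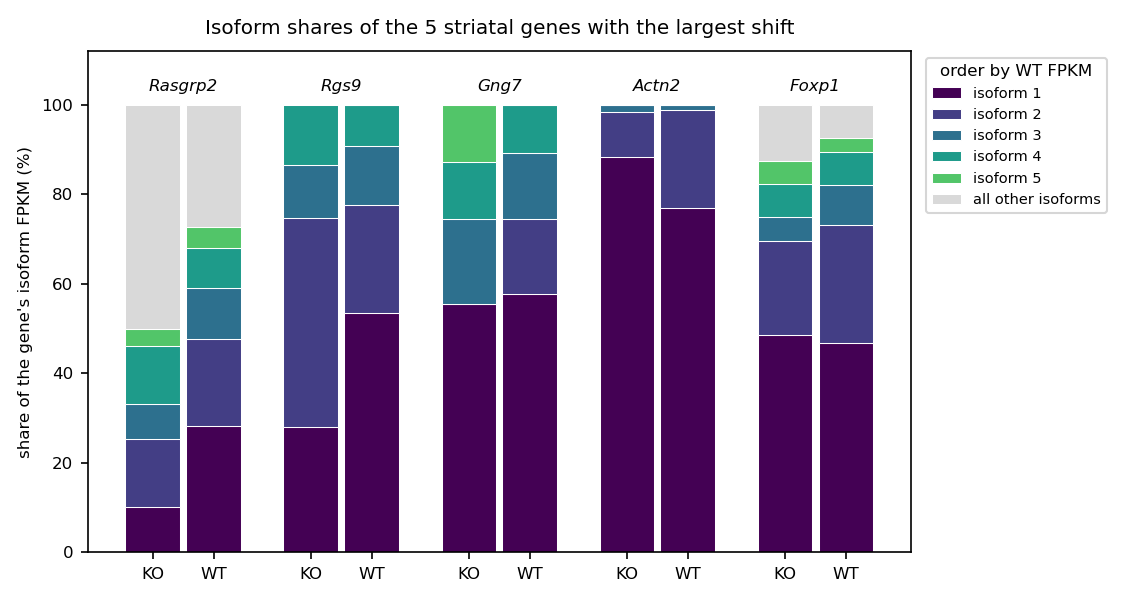
Share of each isoform in the summed isoform FPKM of its gene (%), KO and WT, for the 5 striatal genes with the largest shifts. Colours follow the rank of the isoform in WT, so the same colour is the same isoform in both bars of a gene. The leading *Rgs9* isoform holds 28.1% in KO and 53.6% in WT.

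Some of these genes share exon sequence with other genes in the GENCODE annotation of GRCm38. Exons of 8 of the 36 genes overlap an exon of a gene on the opposite strand, and those of *Foxp1* an exon on the same strand. The library kit keeps strand, but whether the authors' quantification used it is not given in the sources used here. The partners of *Penk* and *Ppp1r1b* were low, *A830012C17Rik* listed at 0 in KO against 0.223 FPKM in WT, and *1700003D09Rik* at 0.216 FPKM in KO and 0.606 FPKM in WT. *Rarb* overlaps the abundant gene *Top2b*, at 47.4 FPKM in KO and 39.9 FPKM in WT, and *Gnal* overlaps *Mppe1*, at 8.38 FPKM in KO and 9.25 FPKM in WT, which leaves the values of *Rarb* and *Gnal* less certain. The deposited locus of *Chrm4* also spans its neighbour *Mdk*. Further deposited loci, among them those of *Penk*, *Arpp21*, *Foxp1*, *Gnal* and *Six3*, reach beyond the GENCODE gene. That of *Penk* ends at 4188703 on chromosome 4, against 4138819 in GENCODE.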

How the data were processed

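Cerebral cortex RNA had been sequenced as 1 KO and 1 WT library. Per the labels, reads were processed with TopHat and Cufflinks (versions not given in the sources used here) on GRCm38. The deposited gene and isoform tables hold FPKM as the authors made them. Their columns of p-values, q-values and ratios were not used. FPKM keeps no fragment counts, so depth is unknown and counting intervals are left out. Among 1951 genes of low values the most frequent KO to WT ratio was 0.888, with 8.97% of these genes close to it. If that ratio stands for single fragments, the KO library would be 1.13 times as deep, which was not tested.

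Log2 ratios, counts and medians were computed in Python 3.11.15 (numpy 2.4.6, pandas 2.3.3). The 2-fold counts were checked on simulated differences larger than 2-fold, in genes of at least 5 FPKM in WT, and the isoform shift on set values. Medians, lower genes and smaller differences were not checked in this way. Genes needed a mean of at least 1 FPKM, and 1 FPKM was added to both values. Isoform shifts needed 1 FPKM in both libraries. The 36 genes, their classes and 13 gene lists were chosen with earlier results of these data known. All 36 genes are given, and genes named from other lists are among the 2 highest and 2 lowest counted genes of their list or are defining markers near 0. Isoforms are given for the 5 largest shifts, and those of *Penk* and *Ppp1r1b* were chosen after their values were seen. Positions are from GENCODE for GRCm38. The RNA kit named in the labels, which mention cortex or hippocampus, differs from that in the study's methods. Alternatives are given in the closing section.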

Additional observations from a re-analysis of the deposited data

How the results depend on the processing

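A value was taken as unmoved when it changed by less than 0.1 on the log2 scale, and a count when it stayed within 1.5 times. With 0.1 FPKM added the median of the indirect pathway was -2.18, and 12 of the 32 single genes moved. Without a limit on low values the medians were -0.63 for the direct and -1.11 for the indirect pathway. With a mean of at least 5 FPKM, 21 of the 36 genes remained, of which 3 were 2-fold lower (against 0.403% of all genes) and 7 were 1.5-fold lower (against 0.882%), and the medians were -0.35 over these genes, -2.11 for *Penk* as the lone gene of the indirect pathway, and -0.79 for genes low in cortex. Scaling KO to a median ratio of 0 moved no count, median or single gene. Summing rows of a symbol and summing isoforms could not move any of them. Each gene has a single row, and its isoform FPKM add up to its gene FPKM. With at least 5 FPKM in both libraries 1 gene, *Rasgrp2*, had an isoform shift of 0.2 or more, in place of 2.

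A pair of alternatives was chosen after seeing the data. Without a limit and with 0.1 FPKM added, 14 of the 36 genes were 2-fold lower (against 3.53% of all genes), and the medians were -0.75 over all genes of the set, -0.96 for the direct pathway, -2.28 for the indirect pathway and -1.38 for genes low in cortex. With at least 1 FPKM in both libraries 3 of 27 genes were 2-fold lower (against 0.134% of all genes) and 9 were 1.5-fold lower (against 0.71%). The medians were then -0.53 for the indirect pathway and -0.61 for genes low in cortex. No alternative turned the sign of a median or of a gene past 1.5-fold. Leaving out a library is not possible with 1 per genotype. No paired analysis was possible because each genotype has a single library.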
